A study of Mus musculus with 15 samples.

Results

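The oligodendrocyte lineage genes described here are 9 genes, Olig1, Olig2, Nkx2-2, Pdgfra, Cspg4, Gpr17, Bcas1, Cnp and Mbp, taken by gene symbol from 26263 named genes. All 9 passed the filter on low counts that left 15261 genes for testing. RNA was sequenced from mouse neural stem and progenitor cells, taken from dorsal telencephalon at embryonic day 12.5 and grown as floating neurospheres under proliferation conditions with EGF and FGF. The 15 libraries form 4 groups. KO_B6 is homozygous Kat6b knockout on a C57Bl/6 background (n = 4), and WT_B6 is wild type on that background (n = 3). Tg_FvB carries the transgene Tg(Kat6b) on a mixed background of FvB and BalbC (n = 6), and WT_FvB is wild type on that mixed background (n = 2). Kat6b encodes a histone acetyltransferase. The labels give neither the deleted part of Kat6b nor the promoter of the transgene. The titles of the Tg_FvB samples read knockout while their genotype field reads transgenic, and the genotype field was followed.

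Oligodendrocytes are the glia that wrap axons of the central nervous system in myelin. They arise from neural progenitors in which the transcription factors OLIG1, OLIG2 and NKX2-2 set the fate, pass through a dividing progenitor that carries the receptor PDGFRA and the proteoglycan NG2 (the product of Cspg4), and then a committed stage marked by the receptor GPR17 and by BCAS1. Maturing cells make the enzyme CNP and the myelin basic protein MBP. In culture, cells of embryonic forebrain grown with FGF commonly express OLIG2, whether or not they go on to make oligodendrocytes.

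Total counts over named genes ran from 39413502 to 62819028 in KO_B6, from 18483747 to 31067022 in WT_B6, from 12336303 to 41746720 in Tg_FvB and from 19930942 to 21417513 in WT_FvB, so every KO_B6 library was deeper than every WT_B6 library. Kat6b, the check of the labels, had 60.9, 64.1, 66.1 and 62.3 CPM (counts scaled to library size) in KO_B6 against 85.1, 84.1 and 83.5 CPM in WT_B6, so 75.2% of its wild-type level was still counted. All 4 knockout libraries were lower, but edgeR did not call the log2 fold change of -0.41 (adjusted p = 0.0571). It had 139.6 to 288.9 CPM in Tg_FvB (median 265.7) against 54.4 and 51.8 CPM in WT_FvB, where the change of 2.19 was called (adjusted p = 2.38e-04). Some libraries were near-identical, with a pairwise coefficient of variation of 0.0172 to 0.0415 against 0.0503 or more for all other pairs. These were the 3 WT_B6 libraries, KO_B6 replicates 2 and 3, Tg_FvB replicates 1 to 3 (linked through replicate 2) and both WT_FvB libraries. Their counts still differed by more than sampling noise, and they were kept apart. That difference does not show that they are separate cultures, and nothing in the labels says that they are repeats of 1 culture. WT_B6 replicates 2 and 4 (0.0172) and KO_B6 replicates 2 and 3 (0.0268) were near-identical across litters 843 and 929. KO_B6 replicates 1 and 2, both of litter 843, stood at 0.155. The p-values measure the spread between libraries, and the calls of the 9 genes and the counts of the gene lists are also given with near-identical libraries summed, which left 3, 1, 4 and 1 profiles in KO_B6, WT_B6, Tg_FvB and WT_FvB. Stem cell markers were abundant in every library, with Sox2 between 348.8 and 714.1 CPM and Nes between 689.1 and 1228 CPM. Of the dorsal markers, Emx2, Lhx2, Pax6 and Dmrta2 were present at 21.6 CPM or more in every library, Neurog2 and Eomes stayed at or under 3.11 CPM, and Emx1 and Neurog1 at or under 0.128 CPM. Of 9 ventral markers, 4 passed the filter. Gsx2 had 1.85 to 4.43 CPM and Gsx1 0.501 to 2.85 CPM, Dlx1 and Dlx2 stayed at or under 1.14 CPM, Nkx2-1, Dlx5 and Dlx6 at or under 0.0971 CPM, and Lhx6 and Lhx8 had no count.

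Olig1 and Olig2 are neighbours on chromosome 16 with 41091 bases between them (GRCm38.p6, the assembly of mm10). In RefSeq's annotation Olig2 lies at 91225550 to 91228677 and Olig1 at 91269769 to 91271939. Cnp lies on chromosome 11, at 100574909 to 100591875. The 250 bases before the RefSeq start sites of Olig2 and Cnp are shown because these members had the lowest adjusted p among those higher and those lower in the knockout. RefSeq windows were at hand for 5 of the 9 members, the other 4 being Olig1, Gpr17, Bcas1 and Mbp. Capitals mark matches to the E-box CANNTG, the motif class bound by basic helix-loop-helix factors such as OLIG2, and to AACAAT on either strand (read as ATTGTT on the other), a motif bound by SOX factors. The sequences run 5′ to 3′ on the plus strand.
Olig2, chr16:91225300-91225549: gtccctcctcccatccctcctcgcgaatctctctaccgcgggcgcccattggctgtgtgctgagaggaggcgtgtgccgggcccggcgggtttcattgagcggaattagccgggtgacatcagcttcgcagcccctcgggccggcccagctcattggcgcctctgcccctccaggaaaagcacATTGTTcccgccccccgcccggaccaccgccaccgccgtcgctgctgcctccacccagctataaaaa
Cnp, chr11:100574689-100574938: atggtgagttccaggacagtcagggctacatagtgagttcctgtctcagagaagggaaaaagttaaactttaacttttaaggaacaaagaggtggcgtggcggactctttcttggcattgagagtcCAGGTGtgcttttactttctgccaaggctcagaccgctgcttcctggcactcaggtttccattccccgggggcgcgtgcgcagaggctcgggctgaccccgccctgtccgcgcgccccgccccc
The Olig2 window held 0 E-boxes and 1 AACAAT, and the Cnp window held 1 E-box and 0 AACAAT. Over all 32851 RefSeq windows of this length, 66.2% held an E-box and 9.42% held AACAAT on either strand. RefSeq's span of Cnp begins inside the Cnp window, from another transcript.

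Per length, Olig1 and Olig2 stood above the other 7 genes in every library. RPKM (CPM divided by the deposited gene length in kilobases) averaged 780.1 ± 89.0 in KO_B6, 724.1 ± 25.1 in WT_B6, 564.9 ± 82.1 in Tg_FvB and 543.9 ± 3.46 in WT_FvB for Olig1 (SD). For Olig2 it averaged 388.5 ± 25.2 in KO_B6, 261.3 ± 11.0 in WT_B6, 260.4 ± 27.5 in Tg_FvB and 241.4 ± 1.85 in WT_FvB. Cnp came next in every group mean, at 55.0 ± 7.72 RPKM in KO_B6, 148.1 ± 3.41 in WT_B6, 89.6 ± 15.8 in Tg_FvB and 82.8 ± 0.232 in WT_FvB.

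Below Cnp the order differed between groups. In WT_B6 the means fell in the order Gpr17 (80.1 RPKM), Bcas1 (43.8), Nkx2-2 (25.2), Pdgfra (20.3), Cspg4 (18.8) and Mbp (8.85), and no neighbours overlapped. In KO_B6 Gpr17 (26.3 RPKM), Pdgfra (21.9), Cspg4 (21.8), Bcas1 (20.2) and Nkx2-2 (19.1) overlapped one another, and Mbp (5.35) lay below them. In Tg_FvB Bcas1 (38.1 RPKM), Gpr17 (36.0) and Mbp (30.7) overlapped, while Pdgfra (19.3) overlapped Bcas1 and Gpr17 but lay below Mbp in every library. Nkx2-2 (10.0 RPKM) overlapped both Pdgfra and Cspg4 (7.00), the lowest. In WT_FvB the order was Mbp (31.7 RPKM), Bcas1 (18.4), Gpr17 (14.3), Pdgfra (12.4), Nkx2-2 (8.11) and Cspg4 (7.80), and of these neighbours Nkx2-2 and Cspg4 alone overlapped. Per length, Mbp was thus the lowest member on the C57Bl/6 background and ranked above Pdgfra, Nkx2-2 and Cspg4 on the mixed one. These ranks rest on the deposited lengths, 6718 bases for Mbp and 2448 bases for Nkx2-2. In CPM the 2 genes were close in WT_B6, with means of 59.5 for Mbp and 61.8 for Nkx2-2.

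**Figure D1:**
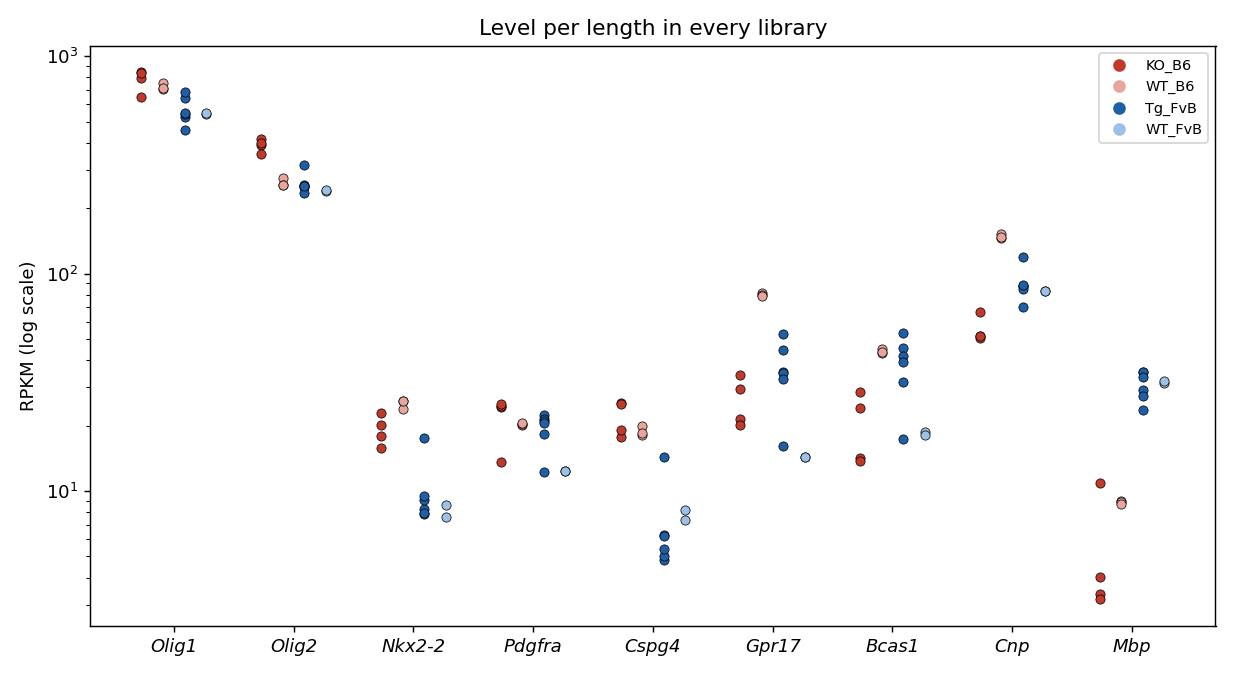
Level per length (RPKM, log axis) of the 9 genes, with 1 point per library and the groups KO_B6, WT_B6, Tg_FvB and WT_FvB from left to right within each gene. Olig1 lies between 456.0 and 842.2 RPKM and Olig2 between 235.6 and 413.7 RPKM, above every other gene.

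The comparison of KO_B6 with WT_B6 asks how these genes stand in Kat6b knockout cells. A gene was called when its p from edgeR's quasi-likelihood test, after Benjamini-Hochberg adjustment over all 15261 genes, was under 0.05. Of the 9 members, 4 were called: Olig2 rose, and Gpr17, Bcas1 and Cnp fell. That is near the background, since 45.8% of all genes tested were called in this comparison, 24.8% higher and 20.9% lower. The members' median log2 fold change was -0.40, against 0.02 for all genes tested. Olig2 is one of the factors that set the fate, while Gpr17, Bcas1 and Cnp mark the committed and maturing stages. Not called were Olig1 and Nkx2-2, also fate factors, Pdgfra and Cspg4, of the dividing progenitor, and Mbp, of maturing cells. Among fate factors and among genes of maturing cells, the calls were thus mixed. In bulk RNA, fewer cells of a type and less RNA per cell cannot be told apart.

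Olig2 had 948.5, 1008, 968.2 and 862.5 CPM in the KO_B6 libraries against 667.8, 620.8 and 621.9 CPM in the WT_B6 libraries. Every knockout library was higher than every wild type. The log2 fold change was 0.57 ± 0.09 (SE), with an edgeR adjusted p of 1.24e-04. With near-identical libraries summed it was 0.52, with an adjusted p of 0.164. In the 2 litters that hold both genotypes the direction was the same. Litter 843 had 948.5 and 1008 CPM in KO_B6 against 620.8 CPM in WT_B6. Litter 929 had 968.2 and 862.5 CPM in KO_B6 against 621.9 CPM in WT_B6. The wild types of these litters were near-identical, as were KO_B6 replicates 2 and 3, so the litters may not be independent comparisons.

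Olig1, the neighbour and paralog of Olig2, had 1726, 1829, 1809 and 1412 CPM in KO_B6 against 1634, 1532 and 1550 CPM in WT_B6. The groups overlapped, because KO_B6 replicate 4 was below all 3 wild types. The log2 fold change of 0.11 (95% interval -0.15 to 0.36) was not called (edgeR adjusted p = 0.488). Within each library, the RPKM of Olig1 was 2.04, 2.04, 2.10 and 1.84 times that of Olig2 in KO_B6 and 2.75, 2.77 and 2.80 times in WT_B6, without overlap. Olig1 shares 157 exon bases with Gm15966 on the other strand, and since the strandedness of the counts is not given, its values carry that uncertainty.

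Nkx2-2, a homeodomain factor of the lineage that also promotes the step to maturing oligodendrocytes, had 55.8, 49.2, 44.0 and 38.4 CPM in KO_B6 against 63.5, 58.4 and 63.5 CPM in WT_B6. All 4 knockout libraries were below all 3 wild types, but the log2 fold change of -0.40 ± 0.22 was not called (edgeR adjusted p = 0.157). Fitted on these 2 groups alone the change was -0.41 and was called (adjusted p = 0.0124). Exons of Nkx2-2 overlap the antisense transcript Nkx2-2os.

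Pdgfra encodes the receptor for the growth factor PDGF-A, which keeps progenitors dividing. It had 91.5, 164.4, 164.9 and 169.2 CPM in KO_B6 against 135.5, 137.5 and 138.0 CPM in WT_B6. KO_B6 replicate 1 was below the wild types and the other 3 above them, and the log2 fold change was 0.11 (95% interval -0.31 to 0.53, edgeR adjusted p = 0.685). Without replicate 1 it was 0.25, still not called (adjusted p = 0.194). Exons of Pdgfra overlap the antisense transcript Gm42802 over 456 bases.

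Cspg4, the gene of the NG2 proteoglycan, had 143.0, 203.8, 202.5 and 153.6 CPM in KO_B6 against 159.5, 145.8 and 148.2 CPM in WT_B6. The groups overlapped and the log2 fold change of 0.22 (95% interval -0.41 to 0.84) was not called (edgeR adjusted p = 0.57). Pdgfra and Cspg4 are also expressed by pericytes, mural cells and fibroblasts. Summed CPM of the 14 markers of those cells was 10.6 to 17.8 in KO_B6 and 8.96 to 9.65 in WT_B6. Only 5 of the 14 passed the filter, with 1 higher (Acta2, 1.19, edgeR adjusted p = 0.0202) and 0 lower. Acta2 was not called with near-identical libraries summed, with litter as a covariate, or without KO_B6 replicate 1 or any 1 of the WT_B6 replicates. The pericyte genes Kcnj8 and Abcc9 stayed at or under 0.0492 CPM in every library.

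Gpr17, the gene of a G protein-coupled receptor of committed progenitors, had 177.3, 110.9, 104.9 and 152.5 CPM in KO_B6 against 424.4, 412.2 and 410.6 CPM in WT_B6. Every knockout library was below every wild type, and the mean was 32.8% of that in WT_B6. Gpr17 had a log2 fold change of -1.61 ± 0.27 (edgeR adjusted p = 2.73e-04), or -1.54 with near-identical libraries summed (adjusted p = 0.139). The direction was the same within both litters, which share near-identical libraries and may not be independent comparisons. Litter 843 had 177.3 and 110.9 CPM in KO_B6 against 412.2 CPM in WT_B6. Litter 929 had 104.9 and 152.5 CPM in KO_B6 against 410.6 CPM in WT_B6. Exons of Gpr17 overlap those of Lims2 on the other strand over 188 bases, which is 3.62% of the exon bases of Gpr17.

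Bcas1, which encodes a protein of early myelinating oligodendrocytes, had 88.4, 43.9, 42.4 and 74.4 CPM in KO_B6 against 138.9, 132.8 and 134.2 CPM in WT_B6. No library overlapped, and the knockout mean was 46.0% of the wild-type mean. Bcas1 had a log2 fold change of -1.12 ± 0.29 (edgeR adjusted p = 0.00615), or -1.01 with near-identical libraries summed (adjusted p = 0.284). KO_B6 replicates 2 and 3, which are near-identical, were the lowest and replicates 1 and 4 were nearer to the wild types. Bcas1 shares exon bases with the antisense transcripts Bcas1os1 and Bcas1os2, 11.7% and 0.901% of its exon bases.

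Cnp, the gene of an enzyme of the non-compact myelin that is made before MBP, had 178.3, 137.6, 134.9 and 138.6 CPM in KO_B6 against 406.8, 389.4 and 393.3 CPM in WT_B6. All knockout libraries were below all wild types, at 37.2% of the wild-type mean. Cnp had a log2 fold change of -1.43 ± 0.13, with the lowest adjusted p of the 9 genes (edgeR, 4.98e-06). Summing near-identical libraries kept it at -1.43 (adjusted p = 0.0714). Within litter 843 there were 178.3 and 137.6 CPM in KO_B6 against 389.4 CPM in WT_B6. Within litter 929 there were 134.9 and 138.6 CPM in KO_B6 against 393.3 CPM in WT_B6. These litters share near-identical libraries and may not be independent comparisons. Cnp shares 154 exon bases with Dnajc7 on the other strand.

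Mbp, the gene of a main protein of compact myelin, had 72.7, 22.6, 21.3 and 27.1 CPM in KO_B6 against 60.1, 60.0 and 58.3 CPM in WT_B6. KO_B6 replicate 1 was above all wild types and the other 3 were below them. The log2 fold change of -0.73 ± 0.32 was not called (edgeR adjusted p = 0.0738). Without replicate 1 it was -1.35 and was called (adjusted p = 1.14e-05). With all libraries and a block for replicate number it was called too, so the call depends on replicate 1 and on the model. KO_B6 replicate 1 also had the lowest Pdgfra and the highest Gpr17, Bcas1 and Cnp of the knockout. In count, 5 of the 9 members had no overlap between KO_B6 and WT_B6 libraries, as did 56.2% of all genes tested.

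**Figure D2:**
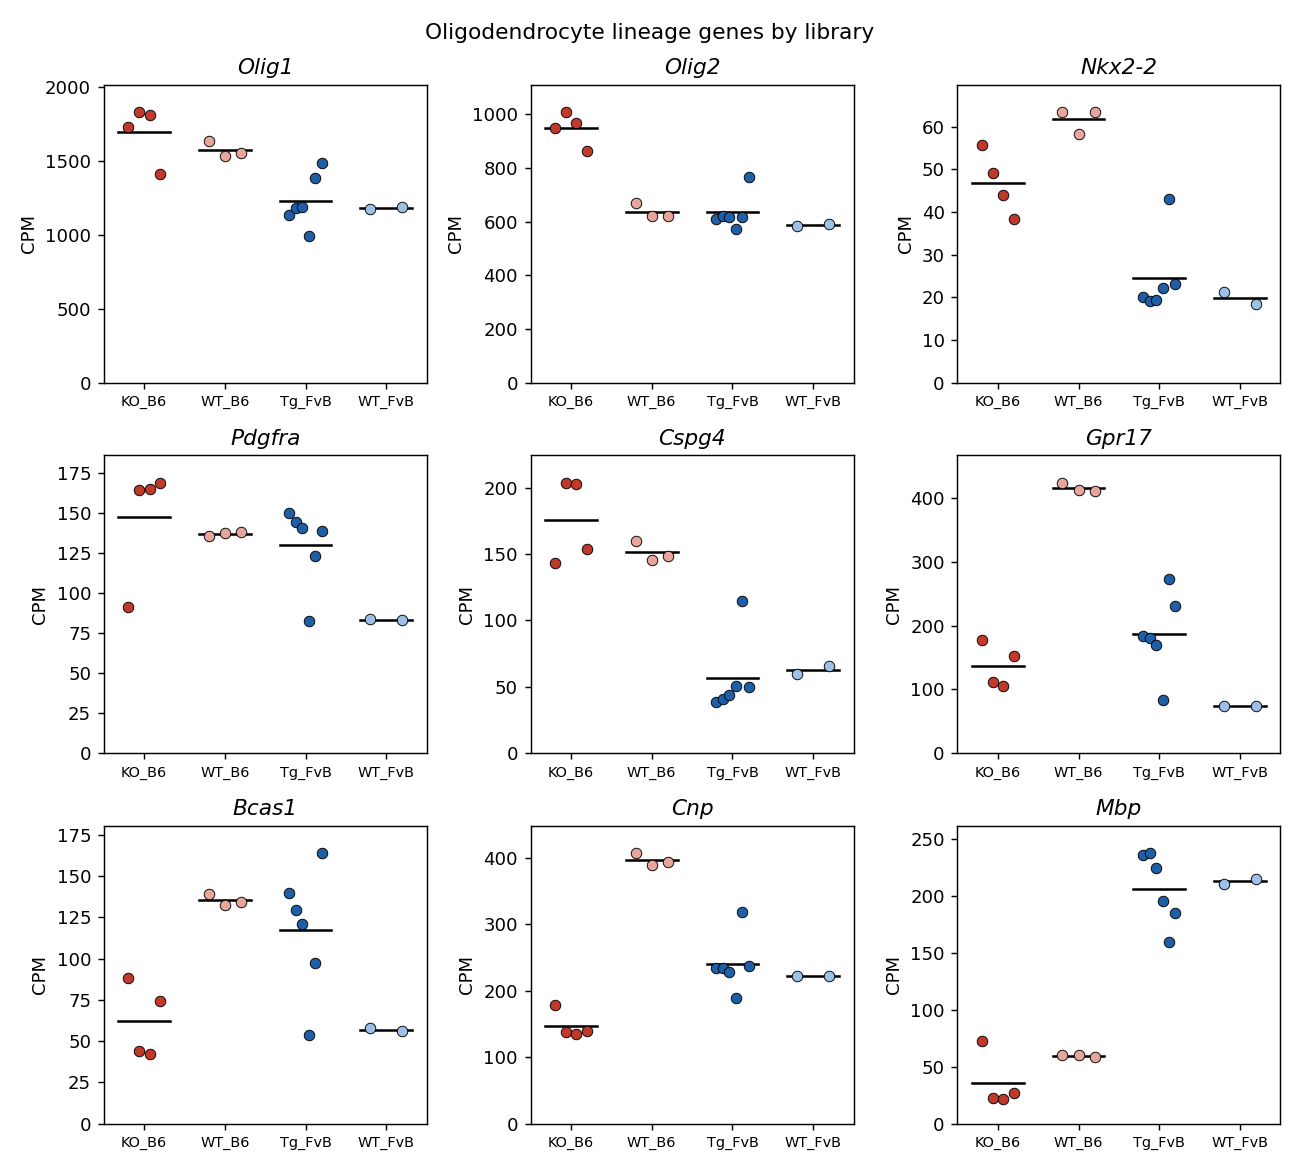
CPM of each of the 9 genes in every library (points) with the group mean (bar), for KO_B6, WT_B6, Tg_FvB and WT_FvB from left to right. The KO_B6 points of Olig2 lie above the WT_B6 points, those of Gpr17, Bcas1 and Cnp lie below them, and in Mbp KO_B6 replicate 1 (72.7 CPM) stands apart.

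Ratios within a library do not depend on its scaling. The RPKM of Olig2 was 11.4, 19.4, 19.7 and 12.1 times that of Gpr17 in KO_B6 and 3.35, 3.21 and 3.23 times in WT_B6. The RPKM of Pdgfra relative to Gpr17 was 0.398, 1.14, 1.21 and 0.855 in KO_B6 and 0.246, 0.257 and 0.259 in WT_B6. Pdgfra relative to Bcas1 was 0.475, 1.72, 1.78 and 1.04 in KO_B6 and 0.448, 0.475 and 0.471 in WT_B6. The groups were apart for both ratios to Gpr17, and for Pdgfra relative to Bcas1 KO_B6 replicate 1 lay within the wild-type range. Mbp relative to Cnp was 0.163, 0.0656, 0.0631 and 0.0780 in KO_B6 and 0.0589, 0.0614 and 0.0591 in WT_B6, so that Mbp stood lower than Cnp in every library of both groups and the ratio was higher in all 4 knockout libraries.

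The comparison of Tg_FvB with WT_FvB asks how the genes stand with more Kat6b RNA. Both WT_FvB libraries and Tg_FvB replicates 1 and 2 carry litter 844, and Tg_FvB replicates 3 to 6 carry litter 873. No WT_FvB library carries litter 873, so genotype and litter are partly mixed here. WT_B6 replicate 1 is also labelled litter 844, and fits with litter as a covariate take that as the same litter across backgrounds. Of the 9 members 1 was called, Gpr17, which was higher, where 1.85% of all genes tested were called, 0.688% higher and 1.17% lower. The members' median log2 fold change was 0.11 against 0.01 for all genes tested. Bcas1 and Pdgfra had means 2.07 and 1.56 times those of WT_FvB without passing the test, and the remaining 6 genes were also not called. Their ratios were 1.24 for Nkx2-2, 1.04 to 1.08 for Olig1, Olig2 and Cnp, 0.97 for Mbp and 0.90 for Cspg4.

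Gpr17 had 183.9, 180.3, 169.6, 83.9, 272.7 and 230.1 CPM in Tg_FvB replicates 1 to 6 against 74.2 and 74.5 CPM in WT_FvB. All 6 transgenic libraries were above both wild types, replicate 4 by the least, and the mean was 2.51 times that of WT_FvB. The highest were replicates 5 and 6, whose count columns are headed as wild types. With replicates 5 and 6 left out, Gpr17 was still called. It was the 1 member without overlap, where 16.0% of all genes tested had none. Its log2 fold change was 1.33 ± 0.32 with an edgeR adjusted p of 0.0481. This call was lost without either WT_FvB replicate or without Tg_FvB replicate 1, 2, 3 or 6 (log2 fold change 1.25 to 1.36, adjusted p 0.0690 to 0.442). It was also lost with litter as a covariate (1.29, adjusted p = 0.216), on the 2 groups alone (1.32, adjusted p = 0.178) and with near-identical libraries summed (1.36, adjusted p = 0.9995).

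Bcas1 had 139.8, 129.5, 120.9, 53.8, 97.6 and 164.0 CPM in Tg_FvB against 57.8 and 56.0 CPM in WT_FvB. Replicate 4 was below both wild types and the other 5 were above. The log2 fold change of 1.05 ± 0.34 was not called (edgeR adjusted p = 0.121), and without replicate 4 it was 1.20 and was called (adjusted p = 0.0120).

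Pdgfra had the same layout, with 150.3, 144.3, 141.0, 82.5, 123.2 and 138.9 CPM in Tg_FvB against 83.7 and 83.2 CPM in WT_FvB. Replicate 4 was again below both wild types. The log2 fold change was 0.64 ± 0.22 (edgeR adjusted p = 0.142), and 0.74 without replicate 4 (adjusted p = 0.0180). Tg_FvB replicate 4 had 228.6 CPM of Kat6b, well above the wild types, and with 12336303 counts it was the shallowest library of the study. Without it, 11.6% of all genes tested were called with the transgene, against 1.85% with all libraries.

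Nkx2-2 and Cspg4 were set apart by Tg_FvB replicate 5. Nkx2-2 had 43.1 CPM there and 19.1 to 23.2 CPM in the other 5 transgenic libraries, against 21.2 and 18.5 CPM in WT_FvB (log2 fold change 0.31 ± 0.26, edgeR adjusted p = 0.548). Cspg4 had 114.9 CPM in replicate 5 and 38.7 to 50.6 CPM in the other 5, against 59.5 and 66.0 CPM in WT_FvB. Its log2 fold change was -0.16 ± 0.32 (edgeR adjusted p = 0.824). Without replicate 5 it was -0.50 (adjusted p = 0.0565), and without replicates 5 and 6 it was -0.55 and was called (adjusted p = 0.0449). The count columns of those 2 libraries are headed as wild types of the mixed background. Their Kat6b levels, 139.6 and 288.9 CPM, were above both WT_FvB libraries. On the first principal component, the axis of largest spread (47.9%), replicates 5 and 6 lay at 3.94 and 4.81. Tg_FvB replicates 1 to 3 lay at 33.8 to 37.8, replicate 4 at 52.5 and both WT_FvB libraries at 50.9 and 51.4. The libraries on C57Bl/6 lay at -52.7 to -26.2. The cause was not tested.

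Olig1 and Olig2 overlapped between Tg_FvB and WT_FvB. Olig1 had 990.0 to 1482 CPM in Tg_FvB (median 1183) against 1175 and 1186 CPM in WT_FvB, with a log2 fold change of 0.05 (95% interval -0.22 to 0.33). Olig2 had 574.2 to 766.9 CPM in Tg_FvB (median 616.6) against 585.0 and 591.4 CPM in WT_FvB, with a log2 fold change of 0.11 (95% interval -0.09 to 0.31). The interval of Olig2 lies below its change of 0.57 in the knockout, and neither gene was called (edgeR adjusted p = 0.850 for Olig1 and 0.549 for Olig2).

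Cnp and Mbp also overlapped. Cnp had 188.7 to 318.3 CPM in Tg_FvB (median 234.0) against 222.3 and 221.4 CPM in WT_FvB, with a log2 fold change of 0.11 (95% interval -0.19 to 0.42). Mbp had 159.0 to 237.6 CPM in Tg_FvB (median 210.0) against 210.7 and 214.6 CPM in WT_FvB, with a log2 fold change of -0.04 (95% interval -0.76 to 0.67). The edgeR adjusted p was 0.700 for Cnp and 0.959 for Mbp.

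**Figure D3:**
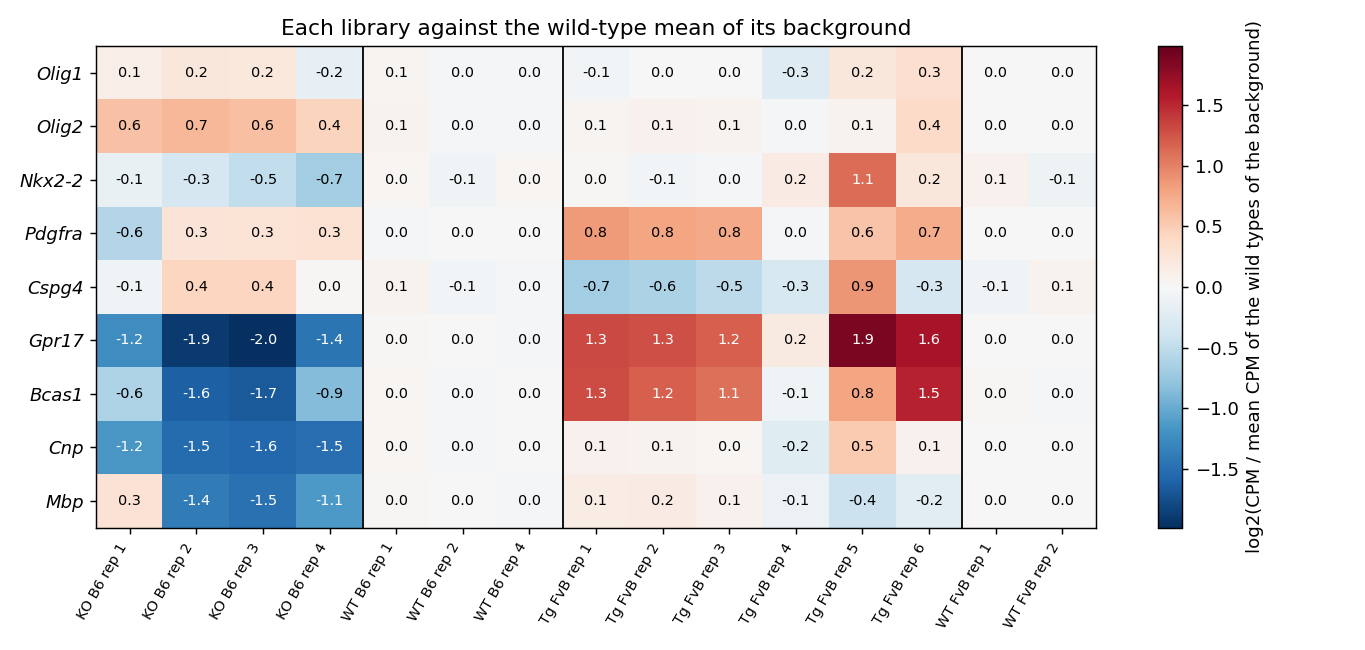
log2 of each library's CPM over the mean CPM of the wild types of its background, for the 9 genes (rows) and 15 libraries (columns), red above and blue below the wild types. Gpr17 is blue in all 4 KO_B6 libraries (177.3 CPM at most against 410.6 CPM or more in WT_B6) and red in the Tg_FvB libraries, palest in replicate 4 (83.9 CPM).

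The difference between both Kat6b effects was tested directly, as the knockout effect minus the transgene effect. It was called for 4 of the 9 members, where 37.3% of all genes tested were called, 19.5% higher and 17.8% lower. Gpr17 had a difference of -2.94 ± 0.42 on the log2 scale (edgeR adjusted p = 3.41e-04), Bcas1 -2.17 ± 0.45 (adjusted p = 0.00235) and Cnp -1.54 ± 0.20 (adjusted p = 2.07e-04). For Gpr17 the knockout effect was -1.61 and the transgene effect 1.33. For Bcas1 the knockout effect was -1.12 and the transgene effect 1.05, which was not called, and for Cnp they were -1.43 in the knockout and 0.11 with the transgene. Olig2 had a difference of 0.46 ± 0.12 (adjusted p = 0.00982), with effects of 0.57 in the knockout and 0.11 with the transgene, and its adjusted p was 0.0522 without WT_FvB replicate 2. None of the 4 was called with near-identical libraries summed (adjusted p 0.247 to 0.414).

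The difference was not called for the other 5 genes. It was 0.05 (95% interval -0.32 to 0.43) for Olig1, -0.71 (-1.43 to 0.02) for Nkx2-2, -0.54 (-1.16 to 0.09) for Pdgfra, 0.37 (-0.55 to 1.29) for Cspg4 and -0.69 (-1.69 to 0.31) for Mbp. Without KO_B6 replicate 1 the difference of Mbp was -1.30 and was called (edgeR adjusted p = 3.96e-04).

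**Figure D4:**
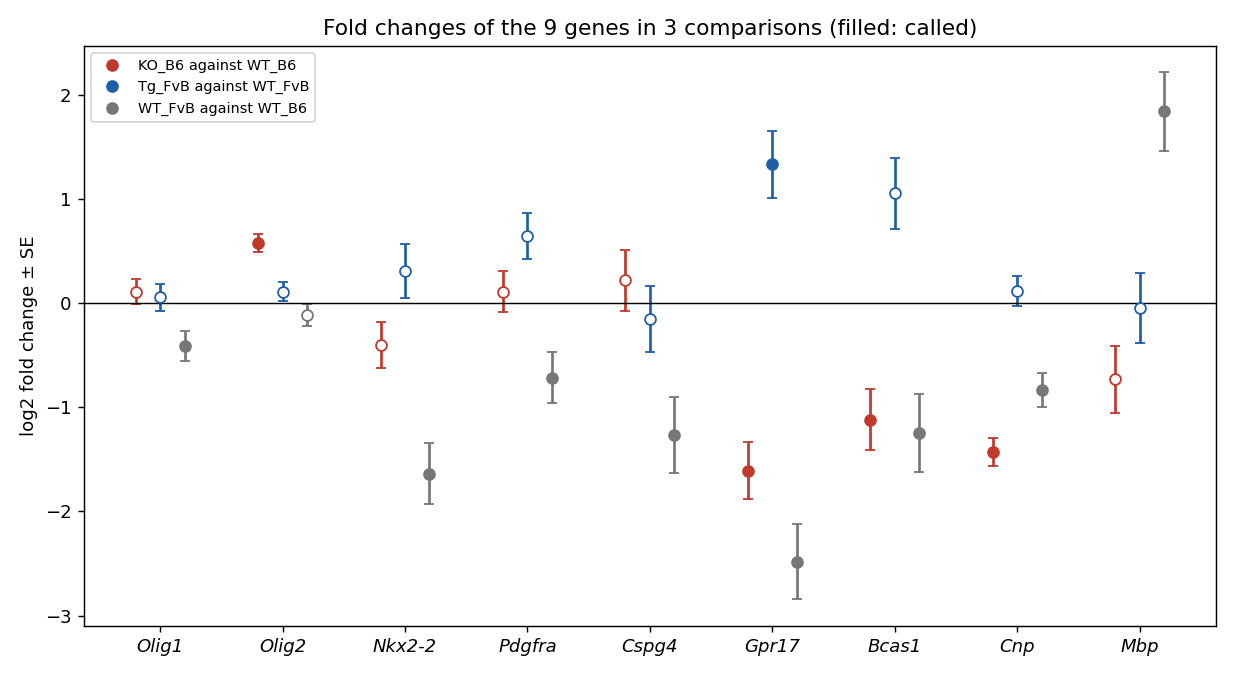
log2 fold change (points) with its standard error (bars) of the 9 genes for KO_B6 against WT_B6, Tg_FvB against WT_FvB and WT_FvB against WT_B6, with filled points called at an adjusted p under 0.05. Gpr17 stands at -1.61, 1.33 and -2.48, and Mbp at -0.73, -0.04 and 1.84.

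The wild types of the 2 backgrounds differed in nearly all members. In WT_FvB against WT_B6, 8 of 9 were called, with Mbp higher and 7 lower, where 48.9% of all genes tested were called, 25.4% higher and 23.5% lower. All 9 had no overlap between the groups, as did 78.3% of all genes tested. Background, culture and handling cannot be told apart here, and each wild-type group is also the control of a Kat6b comparison, so these values share libraries with those above. The labels give litter 844 and embryo 5 for both WT_B6 replicate 1 and WT_FvB replicate 2.

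Mbp had 210.7 and 214.6 CPM in WT_FvB against 60.1, 60.0 and 58.3 CPM in WT_B6, a mean 3.58 times as high (log2 fold change 1.84 ± 0.38, edgeR adjusted p = 0.00121). Gpr17 went the other way, with 74.2 and 74.5 CPM in WT_FvB against 424.4, 412.2 and 410.6 CPM in WT_B6 (-2.48 ± 0.36, adjusted p = 1.46e-04). Within a library, Mbp was 2.19 and 2.23 times Gpr17 in RPKM in WT_FvB and 0.110, 0.112 and 0.110 times in WT_B6. The background difference of both genes was thus larger than their Kat6b effects in point estimate, and that difference in size was not tested.

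Nkx2-2 had 21.2 and 18.5 CPM in WT_FvB against 58.4 to 63.5 CPM in WT_B6 (log2 fold change -1.64 ± 0.29, edgeR adjusted p = 4.81e-04), and Cspg4 had 59.5 and 66.0 CPM in WT_FvB against 145.8 to 159.5 CPM in WT_B6 (-1.27 ± 0.37, adjusted p = 0.0105). Bcas1 (-1.25), Cnp (-0.84), Pdgfra (-0.72) and Olig1 (-0.41) were lower as well, with adjusted p between 8.77e-04 and 0.0276. Olig2, at 585.0 and 591.4 CPM in WT_FvB against 620.8 to 667.8 CPM in WT_B6, was not called (-0.11 ± 0.10, adjusted p = 0.377). Without either WT_FvB replicate, 4 members were called, namely Nkx2-2, Gpr17, Cnp and Mbp. With near-identical libraries summed each wild-type group was 1 profile and none was called.

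Other genes of the lineage were counted in 5 lists. Sox10 and Sox8 are in both the progenitor and the regulator list, and Myrf, Zfp488, Tcf7l2 and Nkx6-2 in both the committed and the regulator list. In the knockout, 9 of the 17 tested genes of committed oligodendrocytes (52.9%) fell and 0 rose, with a median log2 fold change of -0.69, against 45.8% called, 20.9% lower, and a median of 0.02 over all genes. Lims2 fell by 1.80 on the log2 scale, Enpp6 by 1.46 and Myrf, the transcription factor that switches on myelin genes, by 1.27. Lims2, whose exons overlap those of Gpr17, had 7.91 ± 2.43 CPM in KO_B6 and 27.5 ± 1.35 CPM in WT_B6 (SD, n = 4 and 3), Enpp6 had 7.04 ± 3.79 CPM in KO_B6 and 19.4 ± 1.43 CPM in WT_B6, and Myrf had 14.5 ± 4.26 CPM in KO_B6 and 35.1 ± 0.385 CPM in WT_B6. The more abundant Tns3 and Sirt2 fell by 0.74 and 1.12, and the kinase gene Fyn, at 737.5 ± 59.5 CPM in KO_B6 and 757.7 ± 15.6 CPM in WT_B6, was not called (-0.04 ± 0.10).

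Of the 18 progenitor genes, 3 rose and 6 fell in the knockout, with a median log2 fold change of -0.19. That is 50.0% called, near the 45.8% over all genes. Tnr, the gene of the matrix protein tenascin-R, averaged 71.2 ± 6.67 CPM in KO_B6 and 181.3 ± 2.71 CPM in WT_B6 and fell by 1.35. Neu4 and C1ql1 fell by 1.08 and 1.02, and Sox8, a SOX factor that works beside SOX10, fell by 0.78. The most abundant gene of the list, Ptprz1, a receptor phosphatase, was not called (2842 ± 322.2 CPM in KO_B6 and 2633 ± 48.9 CPM in WT_B6, 0.11 ± 0.08). Vcan, the gene of the proteoglycan versican, was not called either (-0.41 ± 0.18, edgeR adjusted p = 0.0707). The 3 that rose, named after their values were seen, were Chst2 (0.77) and Xylt1 (0.71), which encode enzymes that build sulfated sugar chains, and Emid1 (0.53).

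Of the 19 tested myelin genes, 1 rose and 6 fell, and the median was -0.34. The share called, 36.8%, was below the 45.8% over all genes. Fa2h and Gal3st1, enzymes of myelin lipid synthesis, fell by 1.63 and 1.03. Car2, carbonic anhydrase 2, which other cells also express, rose by 0.58, at 110.2 ± 9.54 CPM in KO_B6 and 73.7 ± 1.34 CPM in WT_B6. Trf, the transferrin gene, was not called (0.12 ± 0.44).

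Of the 29 tested regulators, 2 rose and 16 fell, 62.1% in all against 45.8% over all genes, with a median of -0.41. The genes that fell include both factors that promote and factors that restrain the oligodendrocyte fate. Among those that restrain it, Id4 fell by 2.31, to 6.44 ± 3.13 CPM in KO_B6 against 31.7 ± 0.696 CPM in WT_B6, and Hes5, a Notch effector, fell by 1.66, to 94.6 ± 20.2 CPM in KO_B6 against 299.3 ± 17.7 CPM in WT_B6. Sox4 fell by 1.34, to 374.1 ± 35.1 CPM in KO_B6 against 949.3 ± 74.6 CPM in WT_B6. Tcf4 and Tcf12, partners of OLIG proteins in dimers, fell by 0.47 and 0.28. Those that rose, named after their values were seen, were Hes1 (0.65) and Sox11 (0.48).

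Of the PDGF genes tested other than Pdgfra, 1 of 5 was called, or 20.0% against 45.8% over all genes. The ligand gene Pdgfa had 9.54 ± 0.872 CPM in KO_B6 and 10.8 ± 0.819 CPM in WT_B6 (log2 fold change -0.17 ± 0.11, edgeR adjusted p = 0.211), and Pdgfc had 12.8 ± 0.787 CPM in KO_B6 and 11.8 ± 0.883 CPM in WT_B6 (0.11 ± 0.10, adjusted p = 0.378). The receptor-like gene Pdgfrl fell by 0.88, at 0.960 ± 0.281 CPM in KO_B6 and 1.75 ± 0.295 CPM in WT_B6. Pdgfrb, a receptor gene of mural cells, was not called (-0.58 ± 0.23, adjusted p = 0.0530).

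Without KO_B6 replicate 1, the knockout counts of lower genes were 6 of 18 progenitor, 10 of 17 committed, 7 of 18 myelin, 16 of 29 regulator and 2 of 5 PDGF genes, and 4 progenitor, 1 myelin and 2 regulator genes were higher. Over all genes 47.3% were then called, 23.2% higher and 24.1% lower. With near-identical libraries summed 0 genes of the 5 lists were called by edgeR, while 8 of 18 progenitor, 8 of 18 committed, 4 of 20 myelin, 12 of 29 regulator and 1 of 5 PDGF genes had an unadjusted p under 0.05. Only 0.0313% of all genes were called in that fit. The medians of the 5 lists then were -0.27, -0.65, -0.34, -0.41 and -0.18.

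With the transgene, 2 of the 18 progenitor genes were called and both were higher, or 11.1% where 1.85% of all genes were called, 0.688% higher. Tnr had 69.3 ± 22.0 CPM in Tg_FvB and 28.8 ± 0.603 CPM in WT_FvB (log2 fold change 1.27 ± 0.23, edgeR adjusted p = 0.0222). Sox10, a SOX factor of the oligodendrocyte lineage though not of it alone, had 39.6 ± 10.4 CPM in Tg_FvB and 17.4 ± 0.523 CPM in WT_FvB (1.20 ± 0.23, adjusted p = 0.0232). Sox10 was named after its values were seen, and in the knockout it fell by 0.90, at 35.8 ± 3.95 CPM in KO_B6 and 67.1 ± 5.52 CPM in WT_B6. The difference between both effects was called for both genes, at -2.62 for Tnr and -2.11 for Sox10. With the transgene edgeR called 0 of 17 committed, 0 of 19 myelin and 0 of 5 PDGF genes, of which 6, 5 and 1 had an unadjusted p under 0.05 and DESeq2 called 3, 1 and 0. Among the 29 regulators edgeR called Sox10 alone (3.45%). The calls of Tnr and Sox10 were lost with litter as a covariate, on the 2 groups alone and without either WT_FvB replicate, where edgeR called 0 progenitor and 0 regulator genes (3 to 6 of each unadjusted). Without Tg_FvB replicate 4, 5 progenitor, 5 committed, 3 regulator, 1 myelin and 1 PDGF gene were higher and 1 myelin gene was lower. Over all genes 11.6% were then called, 6.32% higher and 5.25% lower. With near-identical libraries summed edgeR called 0 genes of the 5 lists with the transgene, and 2 progenitor, 1 myelin and 1 regulator gene had an unadjusted p under 0.05. Medians were 0.38 for progenitor, 0.27 for committed, -0.35 for myelin, 0.13 for regulator and 0.15 for PDGF genes, against 0.01 over all genes.

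**Figure D5:**
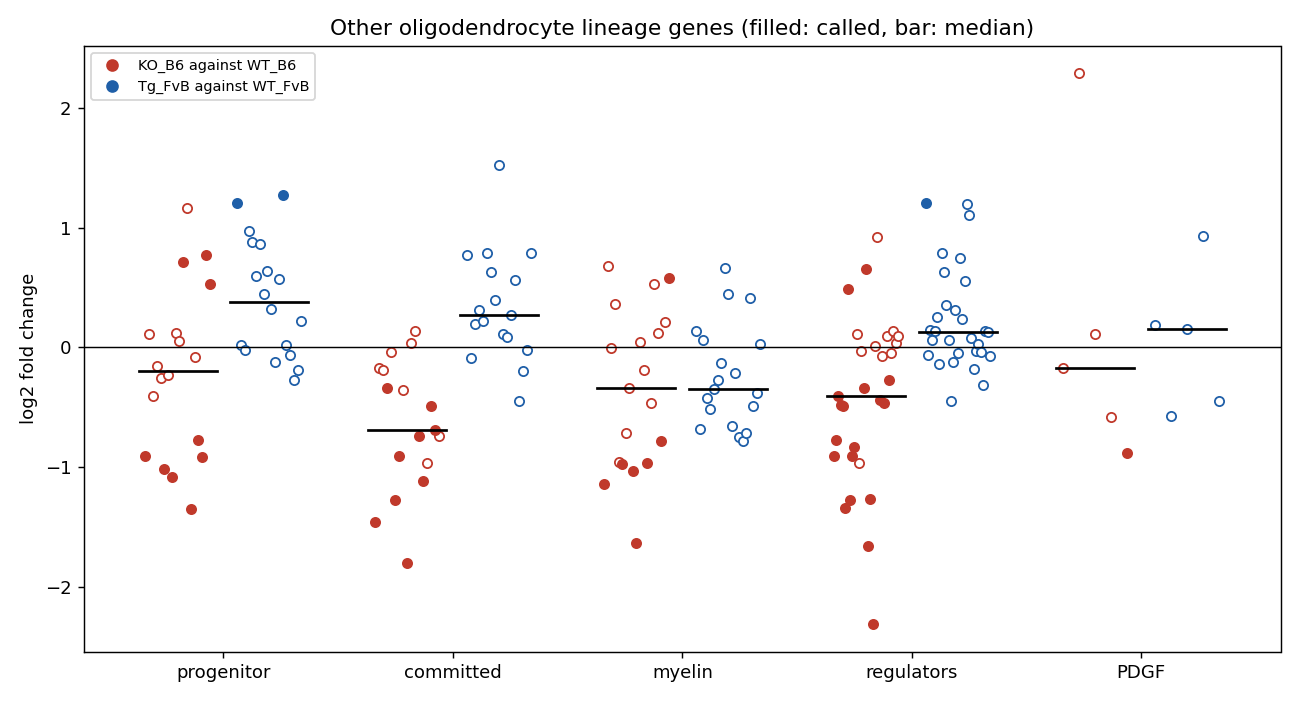
log2 fold change of the tested genes of 5 lists other than the 9 members, for KO_B6 against WT_B6 (red) and Tg_FvB against WT_FvB (blue), with filled points called and a bar at the median. Committed genes have medians of -0.69 and 0.27 in these comparisons, and the lowest red point is Id4 at -2.31.

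Markers of other cells moved in the same comparisons, where 45.8% of all genes were called in the knockout and 1.85% with the transgene. Of 9 astrocyte markers, 6 were lower and 0 higher in the knockout, with summed CPM of 914.6 to 998.7 in KO_B6 and 1268 to 1271 in WT_B6. With the transgene 5 were lower and 0 higher, with 1314 to 1640 CPM in Tg_FvB and 2202 to 2217 CPM in WT_FvB. These 5 calls became 0 with litter as a covariate and without either WT_FvB replicate, 1 on the 2 groups alone and 3 without Tg_FvB replicate 1, 2 or 3, while 5 or 6 of the 9 had an unadjusted p under 0.05 in each. Gfap had 1.81 to 7.15 CPM in KO_B6, 19.2 to 21.1 CPM in WT_B6, 7.86 to 71.1 CPM in Tg_FvB and 157.5 to 159.2 CPM in WT_FvB. Of 10 tested neuron markers, 2 were higher and 3 lower in the knockout (summed over 11, 1085 to 1200 CPM in KO_B6 and 1195 to 1207 CPM in WT_B6), and 3 were higher with the transgene (911.7 to 1157 CPM in Tg_FvB and 1010 to 1057 CPM in WT_FvB). Of 10 stem cell markers, 2 were higher and 5 lower in the knockout (summed CPM 7321 to 8891 in KO_B6 and 8650 to 8694 in WT_B6), and with the transgene 1 was higher and 0 lower (6893 to 10026 CPM in Tg_FvB and 7062 to 7267 CPM in WT_FvB). The 3 neuron calls and the 1 stem cell call with the transgene became 0 with litter as a covariate, on the 2 groups alone, without either WT_FvB replicate and without Tg_FvB replicate 1, 2 or 3. With near-identical libraries summed edgeR called 0 astrocyte, neuron and stem cell markers in both comparisons, and 5, 5 and 4 in the knockout and 5, 5 and 0 with the transgene had an unadjusted p under 0.05. The part of these markers in the members' changes was not tested.

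Schwann cells also express Mbp and Cnp. Their 8 markers summed to 49.5 to 60.5 CPM in KO_B6, 33.8 to 39.0 in WT_B6, 25.6 to 52.6 in Tg_FvB and 44.2 to 46.5 in WT_FvB. Of 7 tested, 1 was higher and 0 lower in the knockout, and edgeR called 0 with the transgene (1 unadjusted, and 0 by DESeq2). The one called was Dhh, the gene of a signalling protein of Schwann cells, with 7.69 to 27.8 CPM in KO_B6 and 3.16 to 4.32 CPM in WT_B6 (log2 fold change 2.51, adjusted p = 2.51e-04), named after its values were seen. With near-identical libraries summed 0 were called in the knockout (1 unadjusted). Cdh19 had 14.2 to 28.1 CPM in KO_B6 and 22.8 to 23.6 CPM in WT_B6 and was not called, and Foxd3 had no count in any library. The mural and fibroblast markers summed to 12.1 to 31.2 CPM in Tg_FvB and 22.7 to 22.9 CPM in WT_FvB. Markers of microglia and endothelium summed to at most 2.69 CPM in any library.

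The genes most like each member were taken as the 3 with the highest Pearson correlation of log2 CPM among 10567 other genes. These correlations describe 15 libraries that fall into groups by background and include near-identical ones. Gpr17 was followed most closely by Slc1a1 (r = 0.99), Timp3 (0.99) and Klf15 (0.98), Cnp by Abhd4, Rnd3 and Glud1 (each 0.98), and Bcas1 by Tmem184c (0.97), Pea15a (0.96) and Ddt (0.96). After group means were removed, the values were 0.99, 0.97 and 0.96 for the genes like Gpr17, 0.87, 0.84 and 0.94 for those like Cnp, and 0.96, 0.94 and 0.93 for those like Bcas1. Olig2 was followed by Tpm4, Insig1 and Fam181b (each 0.97, and 0.78, 0.81 and 0.74 within groups) and Olig1 by Fgfrl1, Acss2 and Ythdf2 (0.97, 0.96 and 0.95). Nkx2-2 was closest to Myadm, Myt1 and Rplp0 (each 0.98), Cspg4 to Trf, Lta4h and Gap43 (each 0.98), Pdgfra to Psat1, Sdf4 and Nr2f2 (0.94, 0.93 and 0.92) and Mbp to Cyp46a1, Eif2ak2 and Limch1 (each 0.97). The genes like Mbp had the lowest values within groups, 0.68, 0.61 and 0.67.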

How the data were processed

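The submitters' processing notes name bcl2fastq, featureCounts and the mouse build mm10. Versions, aligner, annotation and strandedness were not given in the sources used here. Deposited values are raw counts per gene, with a gene length in bases (other unit) per the file headers. Entries without a gene name, 917 per file and 0.450% to 0.545% of counts, were left out.

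Groups came from the genotype and background fields. All 15 libraries entered 1 edgeR model (edgeR 4.0.16, R 4.3.3) with TMM scaling, filterByExpr at a minimum count of 10 and quasi-likelihood F-tests. Genes were called at a Benjamini-Hochberg adjusted p under 0.05 over 15261 genes. CPM uses TMM factors, and RPKM divides by the deposited length. The procedure was tested on simulated independent libraries with 200 changed genes. These data hold near-identical libraries and many more called genes, so that test does not give the error rate here. Alternatives were RLE and upper-quartile scaling, no filter, DESeq2 1.42.0, 2-group fits, litter, a replicate block, summed near-identical libraries, Tg_FvB replicates 5 and 6 left out, and leaving out each library. Likeness used log2 CPM with a prior count of 2 and genes averaging 5 CPM or more, leaving out Gm, Rik and pseudogene names. By rule, values are given for the 9 members and Kat6b. From each lineage list the rule takes the 3 most abundant genes and up to 3 called genes with the largest knockout change. Outside it, Sox10, Chst2, Xylt1, Emid1, Hes1 and Sox11 were named after their values were seen, and markers of other cells were named besides. Some genes that this rule names are not reported here. The members and lists were chosen with earlier results of these data known. Promoters and coordinates are from RefSeq (GRCm38.p6), and exon overlaps from GENCODE M21 of the same assembly. Intervals and errors cover these libraries only.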

Additional observations from a re-analysis of the deposited data

Results flagged for a closer look

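In 7 of 20 gene and group combinations tested, 1 library stood apart from its group by Dixon's criterion. Among independent libraries chance gives that about 1 time in 20. Both groups tested hold near-identical libraries, and the genes share libraries, so 7 of 20 cannot be set against that rate. KO_B6 replicate 1 stood apart in 3 genes, with 91.5 CPM of Pdgfra where the other 3 knockout libraries had 164.4 to 169.2, 178.3 CPM of Cnp where they had 134.9 to 138.6, and 72.7 CPM of Mbp where they had 21.3 to 27.1. Tg_FvB replicate 5 stood apart in 3 genes, with 43.1 CPM of Nkx2-2, 114.9 CPM of Cspg4 and 318.3 CPM of Cnp. Tg_FvB replicate 6 stood apart in Olig2, with 766.9 CPM. The cause of these deviations was not tested.

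The knockout effect minus the transgene effect passed edgeR's test for 4 members, at 0.46 for Olig2, -2.94 for Gpr17, -2.17 for Bcas1 and -1.54 for Cnp on the log2 scale. Knockout and transgene are on different backgrounds, so genotype and background cannot be told apart in these differences.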

How the results depend on the processing

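Over all alternatives, the members' log2 fold changes and their differences gave 612 values, of which 537 kept direction and side of the threshold, 41 lost a call, 18 gained one and 16 changed sign. The knockout calls of Olig2, Gpr17, Bcas1 and Cnp kept direction in every setting and were lost with near-identical libraries summed, where 0 members and 5 genes were called in the knockout (3 members at an unadjusted p under 0.05) and 0 members and 0 genes in the other 3 comparisons (1, 4 and 3 members and 471, 3706 and 2803 genes unadjusted, for the transgene, the wild types and the difference). With the transgene, the members called were 0 on the 2 groups alone and with litter as a covariate (3 unadjusted in each), 2 without Tg_FvB replicates 5 and 6, and 0 to 3 leaving out single libraries. The genes called with the transgene, 283 as reported, were 722 with DESeq2, 10 on the 2 groups alone, 10 with litter, 638 without Tg_FvB replicates 5 and 6, and 2 to 1763 leaving out single libraries. In WT_FvB against WT_B6, litter gave 5 members and 3903 genes, and leaving out single libraries 4 to 8 members. Leaving out a WT_FvB library, or summing, leaves 1 wild-type profile, which is assumed to vary like the other groups. The difference of both effects gave 2862 genes with litter and 3598 to 6760 leaving out single libraries.

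Changes of sign were small. With the transgene, litter gave -0.029 for Olig1, -0.017 for Nkx2-2 and 0.15 for Mbp; leaving out Tg_FvB replicates 5 and 6 gave -0.083 for Olig1, -0.012 for Cnp and 0.062 for Mbp, and summing gave 0.021 for Cspg4. Summing gave a difference of -0.045 for Olig1. Leaving out single libraries, Olig1 ranged from -0.017 to 0.11 and Mbp from -0.090 to 0.0095 with the transgene, and the difference of Olig1 from -0.0016 to 0.13. The cause was not tested.

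The deviations of same-numbered libraries correlated at -0.024 to 0.081. The wild types of each background are near-identical, so their deviations are small and these correlations cannot tell whether replicate numbers pair the samples. A replicate block gave 6 knockout members (adding Nkx2-2 and Mbp), 4 transgene members and 1577 genes (Pdgfra, Cspg4, Gpr17 and Bcas1), and 5 members and 3202 genes in WT_FvB against WT_B6, where Mbp (0.86, adjusted p = 0.279), Pdgfra (-0.52) and Olig1 (-0.12) were no longer called. Under the block Olig1 was -0.029, Nkx2-2 -0.012 and Mbp 0.15 with the transgene, and Olig2 0.16 in WT_FvB against WT_B6.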
